A study of Mus musculus with 12 samples.

Results

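The immunity-related GTPase (IRG) genes Irgm1, Irgm2, Igtp, Iigp1, Tgtp1, Tgtp2 and Ifi47 were followed in 12 CT-26 tumors. They were chosen by their symbols, with their FPKM in swimming against control tumors already known, so the difference between the groups is given below as a description of these 7 genes. They are 7 of the 30630 genes listed for each tumor, and all 7 were among the 19018 genes with enough signal to be tested. CT-26 is a murine colon carcinoma cell line. All mice were male BALB/c, 4 to 6 weeks old when purchased, and carried CT-26 cells injected with Matrigel under the skin of the right flank. Mice of the swimming group (10 mice) swam 2 times per day, 6 days per week, in sessions lengthened to 30 min, and mice of the control group (10 mice) did not. Tumors were removed after 3 weeks, and RNA depleted of ribosomal RNA was sequenced from 6 tumors of each group, here called control 1 to 6 and swimming 1 to 6. The values are FPKM (fragments per kilobase of transcript, scaled to the fragments of each library). FPKM hold no read numbers, so the depth behind a single value is unknown.

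IRG proteins are GTPases that cells make in large amounts after exposure to interferon gamma, and in mice they are known for defending cells against pathogens that live inside membrane-bound vacuoles, such as Toxoplasma gondii. The products of Irgm1, Irgm2 and Igtp (also called Irgm3) act as regulators that keep the other members inactive on the membranes of the cell itself. The products of Iigp1 (Irga6), Tgtp1 and Tgtp2 (Irgb6) and Ifi47 (Irgd) are effectors that gather on the vacuole. Interferon gamma acts on its target genes through GAS elements in their promoters, while interferon-stimulated response elements (ISRE) are bound by interferon regulatory factors and by the factor complex of type I interferon.

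By identifier match to GENCODE M21 (GRCm38), 6 of the 7 genes lie on chromosome 11. Irgm1 is at chr11:48861968-48871683 on the minus strand, Tgtp1 at chr11:48985327-48994172 and Tgtp2 at chr11:49057194-49064206 on the same strand, and Ifi47 at chr11:49076587-49096974 on the plus strand. Igtp (chr11:58199556-58207591) and Irgm2 (chr11:58199618-58222782) overlap each other on the plus strand and share 162 exon bases. Iigp1 lies on another chromosome. All 7 are annotated as protein coding.

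The promoter sequences of the family are shown because they carry features that the choice of the genes did not use. Promoters from 250 bases before to 50 bases after the start site were taken from a set of RefSeq promoters (GRCm38.p6). The set used held an entry for 6 of the 7 genes and none for Iigp1, which is a limit of that set. The promoters were searched for exact matches of TTCNNNGAA (GAS, its own reverse complement) and of GAAA, any 2 bases and GAAA again (ISRE, both strands). These 2 patterns need not overlap. The ISRE letters were found in 5 of the 6 promoters and the GAS letters in 4 of the 6, against 3.44% and 8.3% of all 32851 promoters listed. Both were found in 4 of the 6, against 0.454% of all promoters. No match was found in the Ifi47 promoter, which says only that these letters are not in that window. The 5 stretches of 50 bases around the matches are printed 5′ to 3′ on the strand of the gene, with the matched letters in capitals, GAS first and ISRE second where both occur.
Irgm1, chr11:48871425-48871474: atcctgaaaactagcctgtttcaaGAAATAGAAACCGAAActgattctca
Irgm2, chr11:58214883-58214932: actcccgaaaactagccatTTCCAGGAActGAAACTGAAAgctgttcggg
Igtp, chr11:58199492-58199541: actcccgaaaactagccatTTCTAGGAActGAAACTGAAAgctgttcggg
Tgtp1, chr11:48992304-48992353: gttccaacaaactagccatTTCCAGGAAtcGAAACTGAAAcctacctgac
Tgtp2, chr11:49064263-49064312: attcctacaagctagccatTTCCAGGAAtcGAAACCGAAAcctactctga

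In Irgm2, Igtp, Tgtp1 and Tgtp2 the GAS letters came first and the ISRE letters followed after 2 bases. The Irgm2 and Igtp stretches had the same base at 49 of 50 positions, and the Tgtp1 and Tgtp2 stretches at 41 of 50. Irgm1 had no GAS match and 2 overlapping ISRE matches, which began 30 and 24 bases before its start site. The ISRE match began 64 bases before the start site of Irgm2, 34 before that of Igtp, 77 before that of Tgtp1 and 70 before that of Tgtp2. A match is a description of the letters and not a measured binding site.

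**Figure D1:**
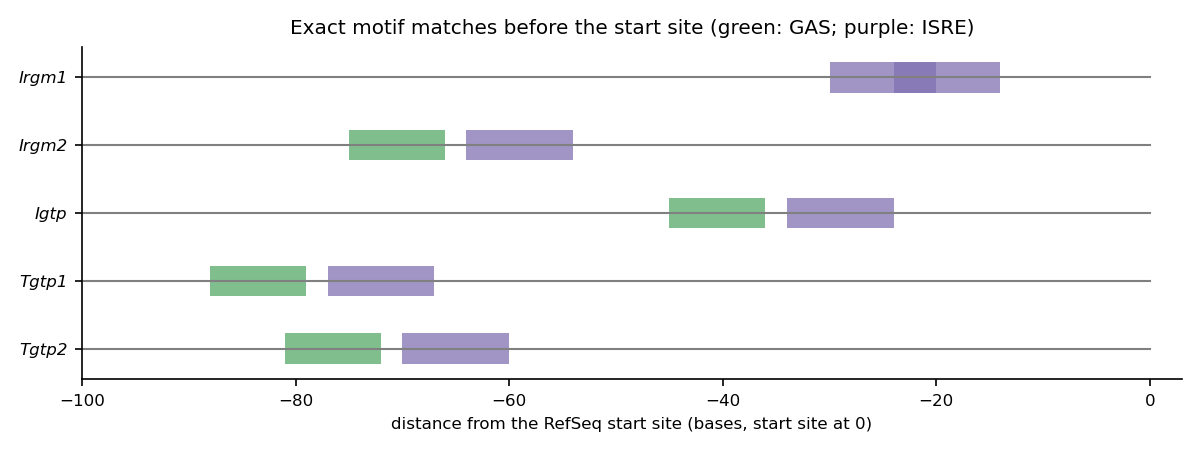
Exact matches of the GAS letters (green) and ISRE letters (purple) in the promoters of 5 genes; the x axis is the distance in bases from the RefSeq start site at 0. Irgm2, Igtp, Tgtp1 and Tgtp2 have a GAS match followed after 2 bases by an ISRE match, and Irgm1 has 2 overlapping ISRE matches.

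Among the regulators, Igtp had the highest mean level in both groups, and Irgm2 was above Irgm1 in every tumor except control 2 and control 6. Irgm1 ranged from 6.33 to 13.4 FPKM in control tumors (median 9.55) and from 5.90 to 21.7 in swimming tumors (median 16.9). Its lowest value of all 12 tumors was in swimming 1, while the other 5 swimming tumors were above every control tumor. Irgm1 averaged 9.65 ± 2.30 FPKM in control tumors and 15.7 ± 5.70 in swimming tumors (SD, n = 6 each), a log2 fold change of 0.58 ± 0.25 (SE) on the log2(FPKM + 1) scale. Igtp ranged from 16.6 to 33.1 FPKM in control tumors (median 21) and from 13.8 to 61.1 in swimming tumors (median 48.8). The arrangement was that of Irgm1, with swimming 1 lowest of all and the other 5 swimming tumors above every control tumor. Its means were 22.8 ± 6.11 and 43.7 ± 17.8 FPKM, with a log2 fold change of 0.80 ± 0.31 (SE).

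Irgm2 ranged from 2.94 to 16.6 FPKM in control tumors (median 8.93) and from 7.84 to 29.4 in swimming tumors (median 21.3). Its lowest values were in control 6 (2.94 FPKM) and control 2 (2.98 FPKM), below swimming 1 (7.84 FPKM), and the groups overlapped. The means were 9.02 ± 5.63 and 20.5 ± 7.54 FPKM, and the log2 fold change of 1.23 ± 0.41 (SE) was the highest of the 7 genes. Irgm2 did not follow the other regulators in these 2 control tumors, and without both of them its log2 fold change was 0.68 ± 0.32 (SE). It was then no longer the highest, being below Tgtp1 (0.89), Iigp1 (0.79), Tgtp2 (0.79) and Igtp (0.76) and above Irgm1 (0.59) and Ifi47 (0.41).

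Of the effectors, Iigp1 had the highest level, with 15.9 to 45.8 FPKM in control tumors (median 26.5) and 14.7 to 77.3 in swimming tumors (median 50.04). Control 4 (45.8 FPKM) was above swimming 2 (43.0 FPKM) and swimming 4 (45.6 FPKM), so only 3 swimming tumors exceeded every control tumor. The means of Iigp1 were 27.3 ± 10.5 and 50.4 ± 21.8 FPKM, with a log2 fold change of 0.78 ± 0.35 (SE). Tgtp1 and Tgtp2 are near-identical copies whose annotated coding sequences had the same base at 1241 of 1245 positions (99.7%). Tgtp1 ranged from 8.54 to 24.7 FPKM in control tumors (median 12.4) and from 6.50 to 42.8 in swimming tumors (median 29.6), with a log2 fold change of 0.92 ± 0.39 (SE). Tgtp2 ranged from 13.0 to 32.6 FPKM in control tumors (median 18.6) and from 9.65 to 54.4 in swimming tumors (median 41.0), with a log2 fold change of 0.81 ± 0.36 (SE). In both, swimming 1 was lowest of all and the other 5 swimming tumors were above every control tumor. Of all stretches of 100 bases in their annotated transcripts, 73.2% in Tgtp1 and 76.8% in Tgtp2 occur in another listed gene as well, so the division of reads between the copies is uncertain. The sum of both copies was 34.0 ± 13.1 FPKM in control and 68.2 ± 29.1 in swimming tumors, and its log2 fold change was 0.87, between those of the copies.

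Ifi47 ranged from 5.18 to 14.4 FPKM in control tumors (median 11.9) and from 4.20 to 29.2 in swimming tumors (median 15.7). Swimming 3 (10.3 FPKM) and swimming 5 (11.98 FPKM), the highest tumors for Igtp and Irgm1, lay inside the control range of Ifi47. The means were 10.6 ± 4.10 and 16.2 ± 9.04 FPKM, and the log2 fold change of 0.45 ± 0.39 (SE) was the lowest of the 7. It depended on single tumors, being 0.25 without swimming 6 and 0.76 without swimming 1.

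**Figure D2:**
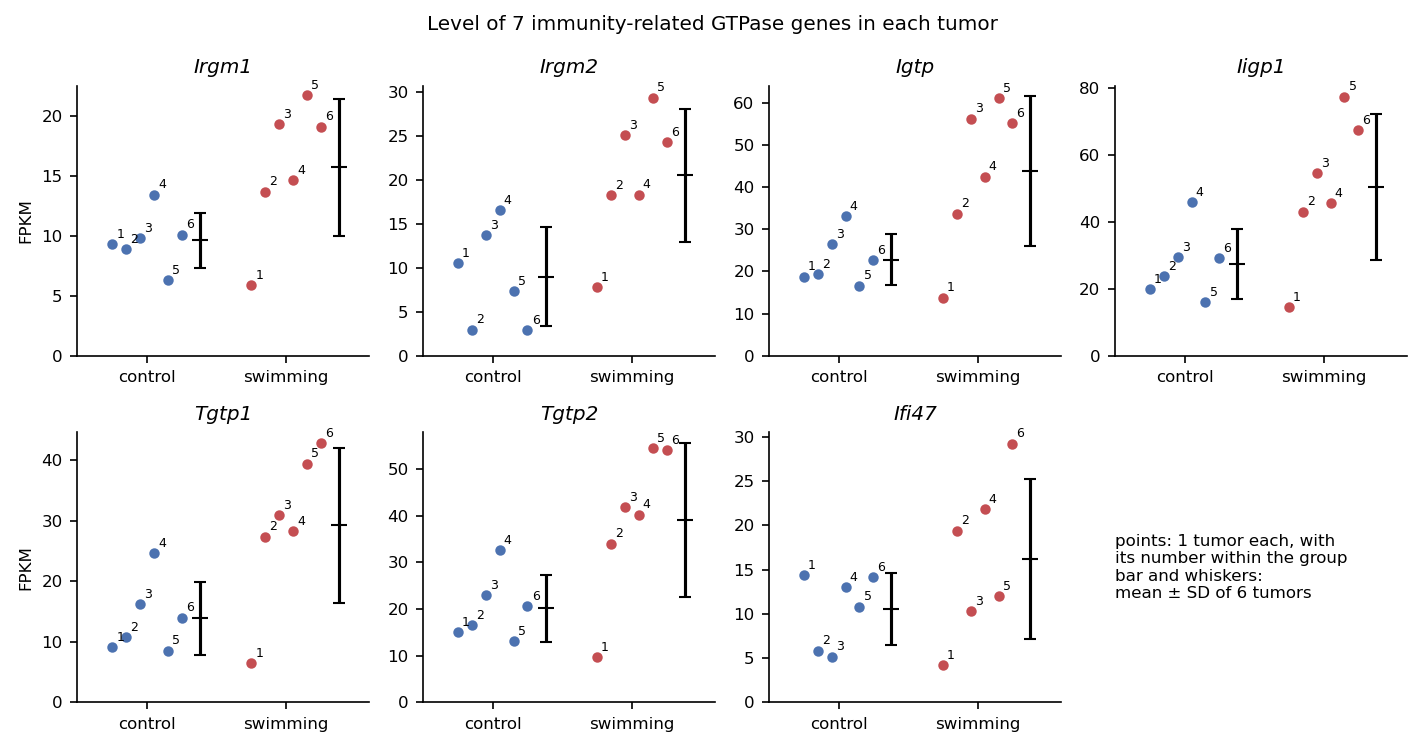
FPKM (y axis) of each of the 7 genes in the control tumors (blue) and swimming tumors (red); each point is 1 tumor with its number, and the black bar with whiskers is the mean ± SD of 6 tumors. Swimming 1 is the lowest swimming tumor in all 7 panels, and control 2 and control 6 are low for Irgm2 but not for Igtp.

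The 7 genes had a median of 0.80 in log2 fold change, while the median over all 19018 genes tested was 0.0039. With limma and Benjamini-Hochberg adjustment over all genes, 0 of the 7 genes passed an adjusted p of 0.05, as did 0% of all genes, and the adjusted p values of the 7 genes lay between 0.889 and 0.927. The smallest adjusted p of any gene was 0.204, and 1058 genes had an unadjusted p below 0.05. At that unadjusted threshold 6 of the 7 genes (all but Ifi47) were higher in swimming tumors, against 3.11% of all genes, and 0 of the 7 were lower, against 2.46%. Irgm2 alone was also past a fold change of 2, against 0.0684% of all genes that were past it and higher in swimming tumors. Without control 2 and control 6 it was not (0 of the 7, against 0.0434% higher). Values of the groups did not overlap, with swimming tumors higher, for 0 of the 7 genes, against 0.0789% of all genes. Since this contrast was known when the genes were chosen, these counts are descriptions and nothing is read from them.

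The 7 genes have tumors in common at both ends. Swimming 1 was the lowest swimming tumor for all 7 and the lowest of all 12 tumors for 6, the exception being Irgm2. Swimming 5 was highest for 5 genes, and swimming 6 for Tgtp1 and Ifi47. Control 4 was the highest control tumor for 6 genes (all but Ifi47), and control 5 the lowest for 5. Without swimming 1 the median over the family was 1.09 on the log2 scale. In limma 7 of the 7 then had an unadjusted p below 0.05 (4.54% of all genes were higher at that threshold). Of these, 5 were past a fold change of 2 (0.192% of all genes were past it and higher). At an adjusted p of 0.05, 0 passed, the values lying between 0.105 and 0.596. In those 11 tumors the groups did not overlap for Irgm1, Irgm2, Igtp, Tgtp1 and Tgtp2, as for 0.615% of all genes. Without control 2 and control 6, 0 of the 7 genes had an unadjusted p below 0.05 (3.35% of all genes were higher), while their median log2 fold change was 0.76. Leaving out single tumors other than swimming 1 gave between 1 gene (without swimming 5, 2.31% of all genes being higher) and 6 genes (without control 4, 2.67%) at that threshold. It was 4 of the 7 with no filter on low values (2.64%) and 5 with sample weights (3.23%).

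Ratios within a tumor set the genes side by side whatever the level of the whole family. The ratio of Igtp to Irgm1 lay between 2.02 and 2.90 in all 12 tumors, and that of Iigp1 to Irgm1 between 2.13 and 3.56. The copies varied more against Irgm1, Tgtp1 between 0.981 and 2.24 (median 1.37 in control and 1.87 in swimming tumors) and Tgtp2 between 1.61 and 2.82 (2.05 and 2.49). The ratio of Tgtp1 to Tgtp2 lay between 0.609 and 0.806, which says little about the copies, since most of their sequence is shared and reads from it cannot be assigned to either. The ratio of Irgm2 to Irgm1 lay between 1.13 and 1.40 in 10 tumors but was 0.335 in control 2 and 0.290 in control 6. Against Igtp, its overlapping neighbour, Irgm2 gave the same picture: 0.154 in control 2, 0.130 in control 6 and 0.432 to 0.567 in the other tumors. Irgm1 and Igtp themselves had ordinary values in these 2 tumors (Irgm1 8.90 and 10.1 FPKM, Igtp 19.3 and 22.7 FPKM). In control 2 and control 6 Irgm2 was therefore low while the other regulators were not, and the cause of this was not tested. Irgm2 shares 162 exon bases with Igtp, and 3.0% of the stretches of 100 bases in its transcripts also occur there. Whether reads were divided differently between these genes in control 2 and control 6 was not tested.

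Ifi47 departed from the family in another way. Its ratio to Irgm1 lay between 0.528 and 0.966 in 6 tumors (control 2, 3 and 4, swimming 1, 3 and 5) and between 1.39 and 1.71 in the other 6. Each group had 3 tumors on either side, with no tumor between 0.966 and 1.39. Exons of Ifi47 share 111 bases with the olfactory receptor gene Olfr56, listed at 0.229 to 1.48 FPKM, and 106 bases with the pseudogene Gm12188 on the other strand, listed at 0.326 to 1.44 FPKM. Whether reads were divided differently among these genes from tumor to tumor was not tested.

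**Figure D3:**
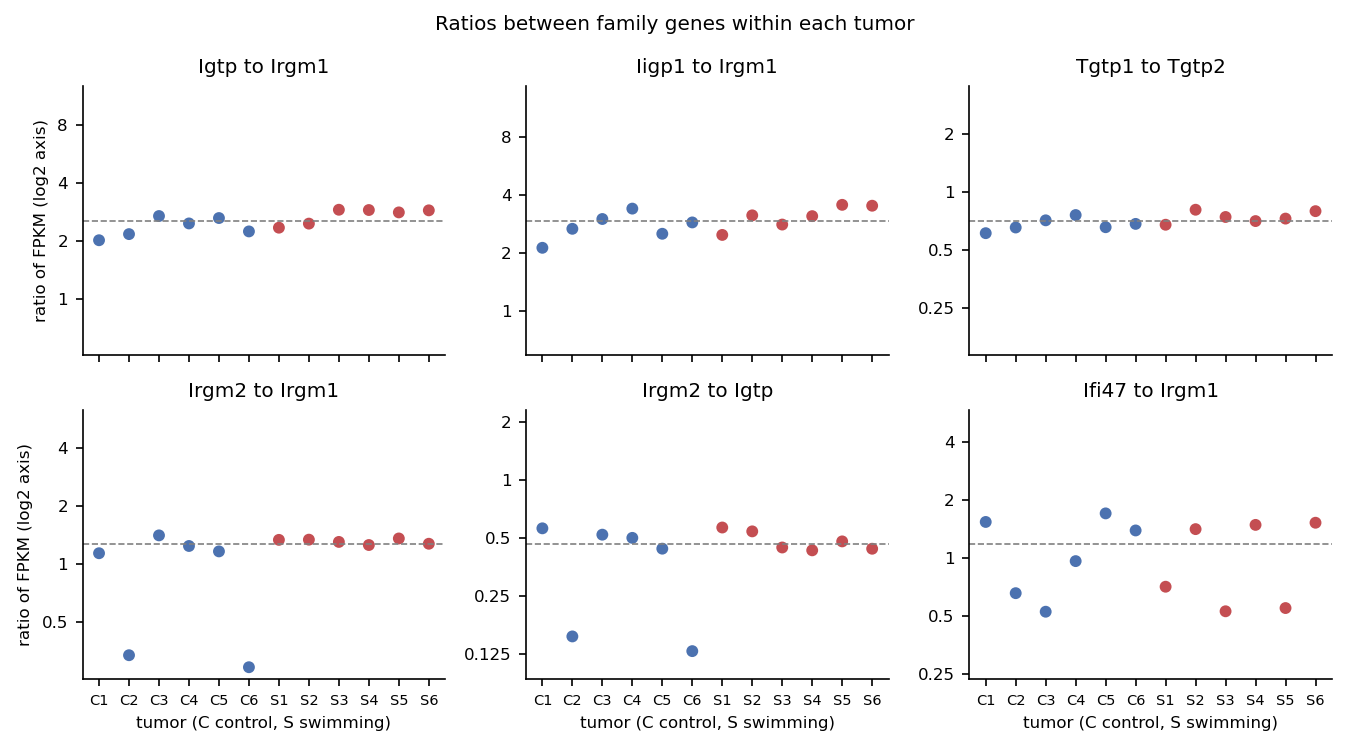
Ratios of FPKM between pairs of family genes within each tumor (y axis, log2 scale of equal span in all panels; x axis, control tumors C1 to C6 in blue and swimming tumors S1 to S6 in red; dashed line, median of 12). Irgm2 falls away from both Irgm1 and Igtp in C2 and C6, and Ifi47 to Irgm1 leaves a gap between 0.966 and 1.39.

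FPKM are divided by length, so levels of different genes can be set side by side, and the choice of the 7 genes did not use these ratios between genes. The fold changes differ between the 7 genes, so the order over 12 tumors mixes the orders of both groups. Over 12 tumors the mean levels were 38.9 FPKM for Iigp1, 33.3 for Igtp, 29.6 for Tgtp2, 21.6 for Tgtp1, 14.8 for Irgm2, 13.4 for Ifi47 and 12.7 for Irgm1. Neighbours in this order were compared by two-sided sign-flip permutation tests of the log2 ratio within a tumor. The p values were adjusted over the 6 pairs, which were taken from the order in these same 12 tumors. The tests therefore partly restate that order. Iigp1 exceeded Igtp by 0.20 ± 0.17 on the log2 scale (SD, n = 12, higher in 10 tumors, permutation p adjusted 0.00684). Igtp exceeded Tgtp2 by 0.21 ± 0.17 (11 tumors), and Tgtp2 exceeded Tgtp1 by 0.50 ± 0.12 (all 12 tumors), both with an adjusted permutation p of 0.00293. The comparisons that involve Tgtp1 or Tgtp2 rest on how reads were divided between these copies, so their places relative to each other and to their neighbours are uncertain. Tgtp1 exceeded Irgm2 by 0.62 ± 0.75 (10 tumors, adjusted permutation p of 0.00806), and by 0.33 without control 2 and control 6 (adjusted permutation p of 0.0322). The log2 ratio of Irgm2 to Ifi47 was 0.03 ± 1.09 and that of Ifi47 to Irgm1 -0.02 ± 0.69, differences within their spread, with an adjusted permutation p of 0.921 for both pairs. Without control 2 and control 6 these ratios were 0.36 and -0.01 (adjusted permutation p of 0.209 and 0.949). Irgm2 and Irgm1 are not neighbours in this order and were not tested against each other, and Irgm2 was above Irgm1 in 10 of the 12 tumors. The smallest p that 12 tumors allow is 0.000488. Within 6 tumors it is 0.0312 before adjustment, and 0 of the 6 pairs passed in either group alone. The first 4 places were the same genes in both groups, and Irgm2 had rank 5 in swimming tumors and rank 7 in control tumors, where its mean includes the low values of control 2 (2.98 FPKM) and control 6 (2.94 FPKM). With the copies Tgtp1 and Tgtp2 summed, their sum (51.1 FPKM) was above Iigp1.

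Correlations across tumors were computed on log2(FPKM + 1) after the mean of each group had been subtracted, and are given as descriptions over 12 tumors that share 1 set of libraries. Irgm1, Igtp, Iigp1, Tgtp1 and Tgtp2 had pairwise correlations of 0.949 to 0.995, and of 0.838 to 0.986 without swimming 1. Irgm2 correlated with the other 6 genes at 0.320 to 0.686, and at -0.05 to 0.54 without swimming 1. In the swimming tumors alone its correlation with Irgm1 was 0.998, against 0.353 in the control tumors, which include control 2 and control 6. Ifi47 correlated with the others at 0.320 to 0.589, and at -0.18 to 0.03 without swimming 1.

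Of 12789 other genes with a mean of at least 1 FPKM, the 10 most like the family included Gbp2b (r = 0.980), Gbp4 (0.980), Gm43302 (0.973), Gbp2 (0.965), Tapbpl (0.947), Gm12185 (0.943), Gm4070 (0.941), AW112010 (0.936) and Gvin1 (0.933). Gbp2b, Gbp4 and Gbp2 encode guanylate-binding proteins, a second group of interferon-induced GTPases that act on pathogen vacuoles, and Gvin1 a very large interferon-induced GTPase. Tapbpl takes part in peptide loading of MHC class I. Gm12185 is itself an IRG gene and shares 223 exon bases with Tgtp1. Without swimming 1, 5 of these 10 were still among the 10 most like, and all 4 of the leading genes were among them (Gbp4, Gm43302, Gbp2b and Gbp2). In swimming tumors alone 4 of these 10 were among the 10 most like, and they were the same leading genes. In control tumors alone only 1 was (Gm43302, r = 0.966), and Gbp2b, Gbp4 and Gbp2 were not. Gbp2b, Gbp4 and Gbp2 still correlated highly with the family in control tumors alone (r = 0.952, 0.965 and 0.917). Their absence there is one of rank, not of likeness. For single genes, the nearest was Gbp4 for Irgm1 (r = 0.984), Tgtp2 for Igtp (0.980), Gm43302 for Iigp1 (0.992), Gbp2b for Tgtp1 (0.997) and Tgtp1 for Tgtp2 (0.995). The nearest to Irgm2 were Gm37847 (0.912) and Tmem199 (0.898), and those to Ifi47 were Gm15452 (0.857) and Cytip (0.853), so neither had a family gene or a guanylate-binding protein among its nearest 3.

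In the pathway that leads to the family, the ligand Ifng averaged 0.37 ± 0.17 FPKM in control and 1.05 ± 0.58 in swimming tumors, with a log2 fold change of 0.55 ± 0.17 (SE). Ifng lay between 0.125 and 0.584 FPKM in control tumors. Swimming 1 was inside that range at 0.334 FPKM, and the other 5 swimming tumors lay above it at 0.635 to 1.83. The receptors Ifngr1 and Ifngr2 and the kinases Jak1 and Jak2 had log2 fold changes between -0.03 and 0.09, so 1 of the 5 genes from ligand to kinase had an unadjusted p below 0.05 (limma, adjusted p 0.889). Ciita, the activator of MHC class II genes, was at 0.290 to 1.16 FPKM in control tumors and at 1.25 to 3.08 in swimming tumors other than swimming 1, which was at 0.339. Its log2 fold change was 0.60 ± 0.22 (SE), and that of Irf1, a factor that binds ISRE, 0.33 ± 0.21 (SE). Of 5 transcription factors of the pathway, 1 (Ciita) had an unadjusted p below 0.05, and their median log2 fold change was 0.33. Of the 5 inhibitors, among them Socs1 (log2 fold change 0.25 ± 0.17, SE) and Usp18 (0.32 ± 0.17, SE), 0 did.

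The other IRG genes had lower mean levels than the 7. Of 10, 8 were tested and 5 had an unadjusted p below 0.05, all higher: Gm12185 (log2 fold change 0.80 ± 0.25, SE), F830016B08Rik (0.69 ± 0.28), Gm4841 (0.68 ± 0.31), Gm4951 (0.62 ± 0.22) and 9930111J21Rik1 (0.23 ± 0.10). The most abundant, Gm4951, averaged 5.75 FPKM in control and 9.72 in swimming tumors. Irgq, which is not known as an interferon-induced member, had 3.55 to 6.67 FPKM in 11 tumors and 17.97 in control 4. The testis gene Irgc1 was listed at no more than 0.04 FPKM in any tumor and was not tested.

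Of the lists examined, the guanylate-binding proteins had the median nearest to that of the 7 genes. Of 11 genes, 10 had an unadjusted p below 0.05 and were higher (all but Gbp6), and the median log2 fold change was 0.82. Gbp2b averaged 34.7 ± 14.0 FPKM in control and 78.6 ± 32.3 in swimming tumors (log2 fold change 1.07 ± 0.37, SE), and Gbp2 38.9 ± 13.8 and 81.7 ± 31.5 (0.99 ± 0.33, SE). In swimming 1 Gbp2b was at 20.2 FPKM, the lowest of all 12 tumors, as were 6 of the 7 IRG genes. This did not hold for the list as a whole. Gbp2 was lowest in control 5 (24.1 FPKM, against 25.4 in swimming 1). The sum of the 11 genes was also lowest in control 5 (84.0 FPKM, against 91.3 in swimming 1). Summed over the 11 genes, the guanylate-binding proteins correlated with the family at 0.96, and at 0.87 without swimming 1. The promoter table held 6 promoters of 5 of these 11 genes, with the ISRE letters in 5 of the 6 (3.44% of all promoters), the GAS letters in 2 (8.3%) and both in 2 (0.454%). Of the 5 listed promoters of the other IRG genes, 2 held the ISRE letters, 1 the GAS letters and 1 both.

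Of 24 other genes known to be induced by interferon gamma, 15 had an unadjusted p below 0.05, all higher, with a median log2 fold change of 0.43. Among them were the MHC class II genes H2-Eb1 (1.16 ± 0.47, SE), Cd74 (1.05 ± 0.39) and H2-Ab1 (1.018 ± 0.391), the chemokine Cxcl9 (1.04 ± 0.43) and the immunoproteasome subunit Psmb8 (0.62 ± 0.20). B2m, the most abundant gene of the list, had a log2 fold change of 0.18 ± 0.09 (SE). The 19 listed promoters of these genes held the ISRE letters in 3 (3.44% of all promoters), the GAS letters in 1 (8.3%) and both in 0 (0.454%). Of 18 antiviral genes typical of type I interferon, 3 had an unadjusted p below 0.05 (Ddx58, Ifih1 and Rtp4), with a median of 0.32, and 9 of their 15 listed promoters held the ISRE letters, 3 the GAS letters and 2 both. Their sum correlated with the family at 0.55, and at 0.13 without swimming 1. Of the ligand, receptors and factors of type I interferon, 1 of 6 tested (Stat2, 0.41 ± 0.17, SE) had an unadjusted p below 0.05. Genes of the autophagy conjugation machinery, whose products are needed to keep IRG proteins in check in mouse cells, had a median of -0.05, with 0 of 11 at that threshold. Of their 8 listed promoters, 2 held the GAS letters and 0 the ISRE letters. Over all genes 3.11% of genes were higher and 2.46% lower at the same threshold, and 0 genes of any list passed an adjusted p of 0.05.

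**Figure D4:**
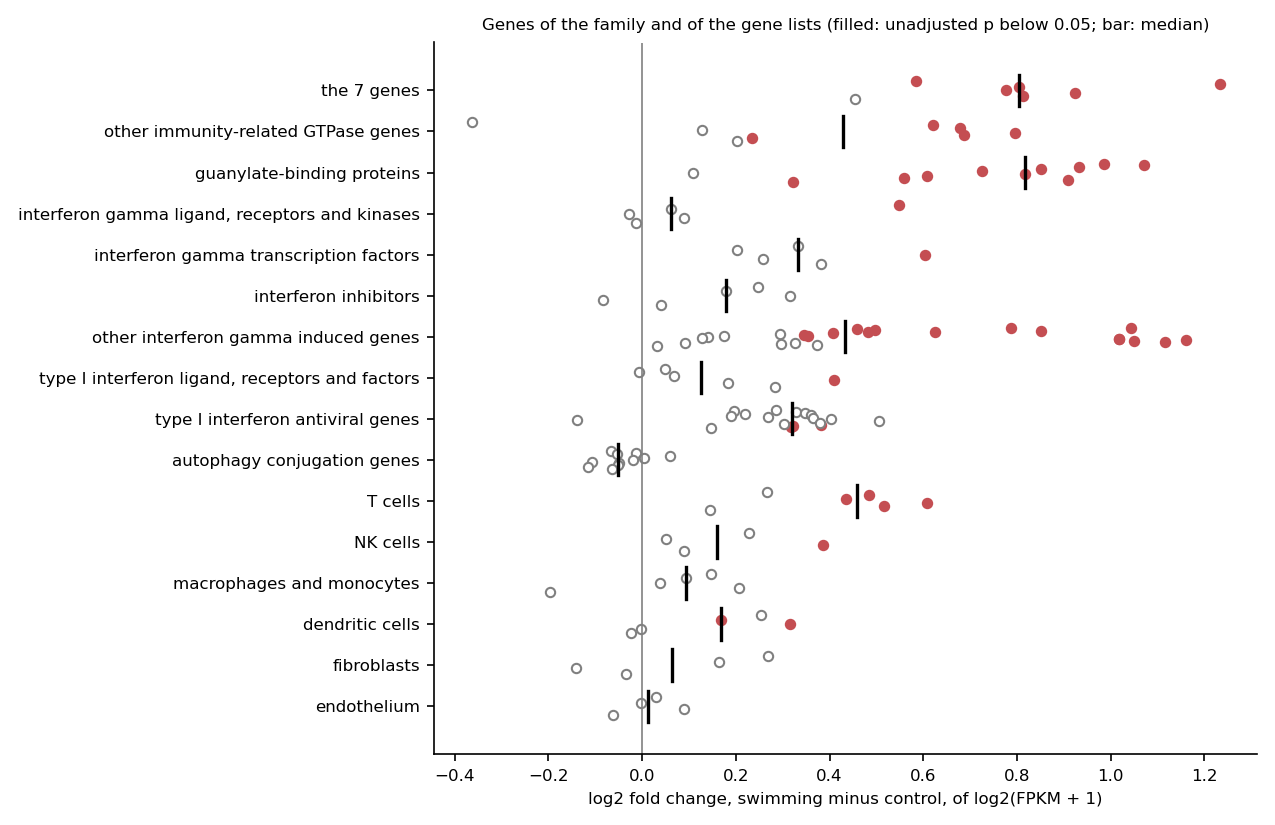
Log2 fold change (x axis, swimming minus control, on log2(FPKM + 1)) of every tested gene of the family and of 15 gene lists (y axis); filled points have an unadjusted p below 0.05 in limma and bars are list medians. The 7 genes (median 0.80) and the guanylate-binding proteins (0.82) have the highest medians drawn, and the autophagy conjugation genes centre on -0.05. This scale understates changes of low genes, such as the T cell markers, so medians of lists at different levels are not directly comparable.

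These are whole tumors, and in bulk RNA a change in the number of cells of a type and a change in RNA per cell cannot be told apart. Against the labelled CT-26 origin, the epithelial gene Krt18 was present at 10.1 ± 2.46 FPKM in control and 9.37 ± 2.45 in swimming tumors, while Epcam was listed at no more than 0.177 FPKM and Cdh1 at no more than 0.430. Krt8 was at 1.86 to 19.9 FPKM in 11 tumors and at 129 in control 4, the highest control tumor of the family. Of 6 T cell markers, 4 (Cd3d, Cd3g, Cd8a and Cd8b1) were higher in swimming tumors at an unadjusted p below 0.05, and 0 passed an adjusted p of 0.05 in limma. Cd3e (log2 fold change 0.27 ± 0.15, SE) and Cd4 (0.14 ± 0.12) did not pass the unadjusted threshold. The sum of the 6 markers ranged from 3.20 to 7.50 FPKM in control tumors (median 5.09) and from 5.31 to 15.1 in swimming tumors (median 9.55). Cd8a, the most abundant of them, averaged 1.47 ± 0.71 and 2.80 ± 1.19 FPKM, and 0 of the 6 markers were at 0 in all tumors. Within groups that sum correlated with the family at 0.41, and at -0.01 without swimming 1. The correlation was 0.76 in swimming tumors alone and -0.21 in control tumors alone. Control 4 had the second lowest sum (3.39 FPKM) with the highest family level of the control tumors. NK cell markers were 1 of 4 past the threshold (Klrk1), and their sum was 1.28 to 3.13 FPKM in control and 1.33 to 4.42 in swimming tumors, correlating with the family at 0.87 and at 0.65 without swimming 1. Ncr1, at 1.17 ± 0.35 and 1.59 ± 0.63 FPKM, was the most abundant of the NK cell markers.

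Markers of macrophages and monocytes, cells that are known to make IRG proteins after interferon gamma, were 0 of 5 at the threshold. Their sum was 177 ± 30.6 FPKM in control and 177 ± 23.3 in swimming tumors, Cd68 being the most abundant, and it correlated with the family at 0.16. Of 5 dendritic cell markers, 2 were higher at the threshold (Xcr1 and Flt3), both below 1 FPKM on average. Fibroblast (4 genes), endothelial (4), skeletal muscle (5), neutrophil (4 of 5 tested), B cell (2 of 4 tested), adipocyte (2 of 4 tested) and epithelial markers (4 of 5 tested) had 0 genes at the threshold. The sum of skeletal muscle markers varied widely, from 0.688 to 141 FPKM in control and from 0.286 to 193 in swimming tumors. The part of T cells and NK cells in the level of the 7 genes was not tested.

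**Figure D5:**
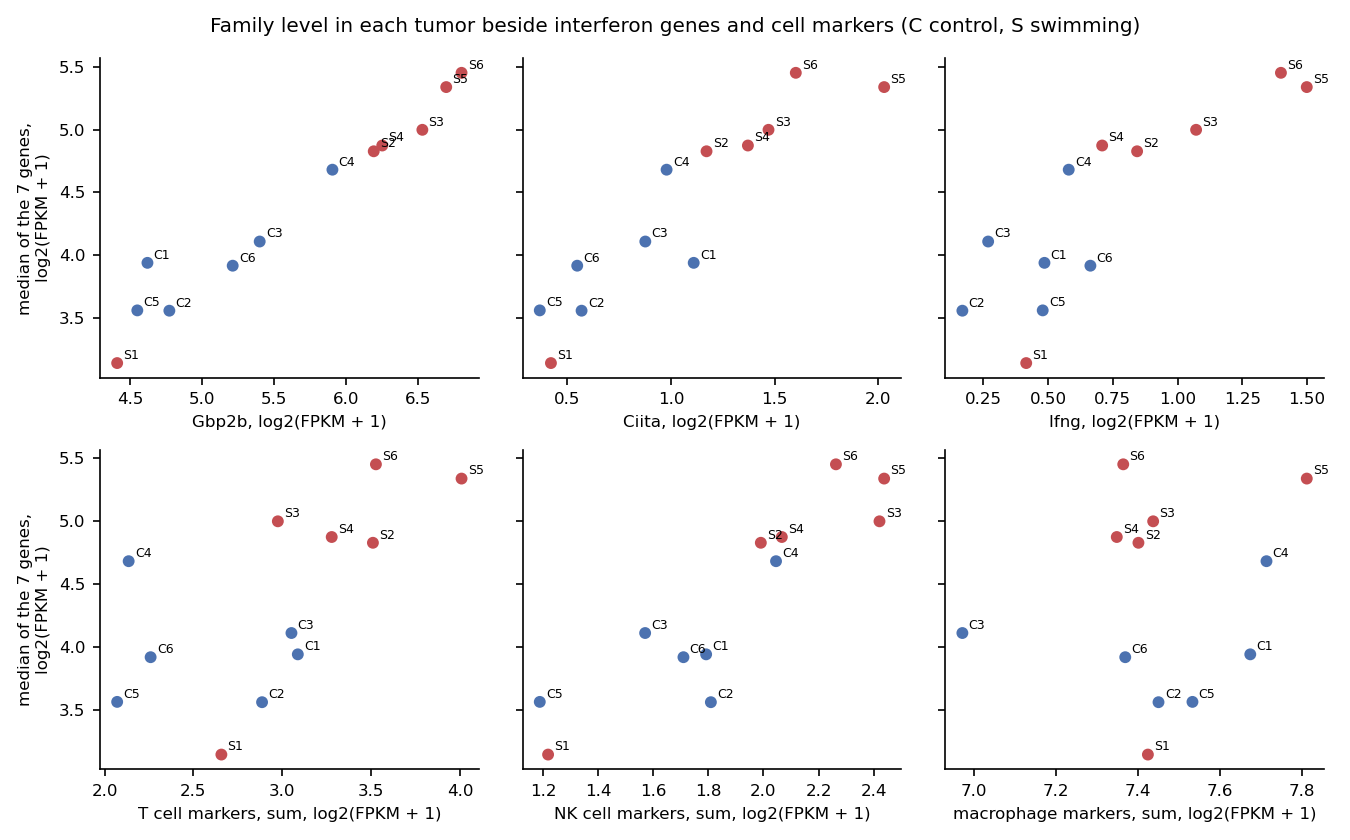
Median log2(FPKM + 1) of the 7 genes in each tumor (y axis) against Gbp2b, Ciita, Ifng and the summed markers of T cells, NK cells and macrophages (x axes, log2(FPKM + 1)); control tumors are blue (C1 to C6) and swimming tumors red (S1 to S6). S1 lies at or near the low end for Gbp2b and Ciita, and the macrophage sum does not order the tumors as the family does (r within groups 0.16).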

How the data were processed

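The authors sequenced RNA of 12 tumors, 6 per group. The deposited values are FPKM per gene, made by the authors by removing ribosomal RNA, mapping reads and quantifying with StringTie. The submitters' processing notes list HISAT2 2.0.5, StringTie 1.3.3, GRCm38 and hg38. The methods name only hg38, while the identifiers are those of mouse genes, so coordinates were matched by identifier only. FPKM carry no read numbers. From the steps of weakly expressed genes, depth relative to control 1 was 0.693 in control 2 and 0.871 or more in the other tumors, so low values are least precise in control 2. Groups were taken from the labels, and separate mice gave separate tumors.

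Expression was compared on log2(FPKM + 1), which understates changes of low genes, for the 19018 genes that reached 0.1 FPKM in 6 or more tumors, using limma 3.58.1 (R 4.3.3) with a mean-variance trend, no covariate and Benjamini-Hochberg adjustment. The study named limma with a cut-off of 2, read here as a fold change. Levels were compared by sign-flip permutation in Python 3.11.15 (pandas 2.3.3, scipy 1.17.1), and plots drawn with matplotlib 3.10.9. Promoters and motifs are from RefSeq (GRCm38.p6), and coding identity was computed from GENCODE M21 with Biopython 1.88. Proteins were not used here. The fit and the permutation test were tested on simulated data. Named are the 7 genes, genes of the lists (those past an unadjusted p of 0.05 and the most abundant first), the 10 genes most like the family, the 3 most like each gene and overlapping genes. A gene among the 10 and a gene of the pathway are not reported here.

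The 7 genes and all lists were chosen with earlier results of these data known. Alternatives were pseudocounts of 0.1 and 0.01, no filter or 1 FPKM, quantile normalization, trimmed mean scaling, sample weights, no trend, the replicate block, Spearman's rho, each group alone, the sum of Tgtp1 and Tgtp2, and leaving out each tumor. Leaving out control 2 and control 6 together was chosen after seeing the data. Same-numbered tumors of the 2 groups did not deviate together (mean correlation -0.12).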

Additional observations from a re-analysis of the deposited data

Results flagged for a closer look

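In 38 groups of 6 tumors (the 7 genes, their median, 9 ratios between them, Ifng and Irf1, in each group), the gap of the lowest or highest tumor to its nearest neighbour was divided by the range of the group on the log2 scale and compared with Dixon's 95% critical value. Chance gives about 1 in 20 groups, or 1.9 of 38, and 6 were found. All 6 were swimming 1, standing below the other swimming tumors, and they are not independent of each other. The values were 0.635 for Irgm1, 0.631 for Irgm2, 0.642 for Iigp1, 0.755 for Tgtp1, 0.721 for Tgtp2 and 0.73 for the median of the 7 genes. The relative depth of swimming 1 was 0.973, inside the range of the other tumors. The low Irgm2 of control 2 and control 6 is not among them, since a pair of low tumors leaves no gap for either.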

How the results depend on the processing

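All 149 alternative log2 fold changes of the 7 genes were above 0 (0.25 to 1.47) and within 1 SD between tumors of the reported value. That bound says little, since leaving out 1 of 6 tumors cannot move a mean so far. The filters and the replicate block leave the estimates unchanged. Irgm2 at 0.68 without control 2 and control 6, against 1.23, also lay within the bound. The median over the 7 genes was 0.68 to 1.09 when single tumors were left out, the highest without swimming 1. The number of genes at an adjusted p below 0.05 in limma was 0 (1058 at an unadjusted p below 0.05), 1 with sample weights and 0 to 3 with single tumors left out (3 without control 4, 2 without swimming 1), and 0 of the 7 genes were among them. The number that changed more than 2-fold with an unadjusted p below 0.05 was 20, against 138 with a pseudocount of 0.1, 229 with 0.01 and 10 (without swimming 5) to 41 (without swimming 1) with single tumors left out. With the replicate block it was 15, and the block changed no call of the 7 genes. The labels' numbers are shared between groups without a stated link, and no same-numbered pair had a correlation over 0.1 (-0.32 to 0.0059). Of the 7 ranks by level, 4 were held in control tumors alone, where the log2 ratio of Irgm2 to Ifi47 was -0.41 and that of Ifi47 to Irgm1 0.051, both of opposite sign to those over 12 tumors. Of the 10 genes most like the family, 1 was shared by control tumors alone, 4 by swimming tumors alone, 5 by Spearman's rho, and 5 (without swimming 1) to 10 with single tumors left out. The cause of these differences was not tested. Read numbers are unknown, so the counting error of low values could not be estimated.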
